A study of Rattus norvegicus with 24 samples.

Results

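The proteasome genes of the rat were followed in primary rat hepatocytes, the main cells of the liver, during 8 days of culture. Members were all genes whose array symbol starts with Psma, Psmb, Psmc, Psmd or Psme, and a gene with several probe sets was read by the one whose average over the 24 arrays was highest. The rule gave 41 genes with 55 probe sets, of 14217 genes and 31042 probe sets measured. Of these, 39 are proteasome genes: 7 alpha and 6 beta subunits of the core particle, 3 immunoproteasome subunits, 6 ATPases and 11 other subunits of the regulatory particle, 3 activators and 3 assembly factors. Psmc3ip and Psme3ip1 match the prefix and are partners of other proteins, not subunits, and are counted apart. The core subunit gene Psmb6 and the activator gene Psme3 are not analysed here, because their probe sets carry several symbols. For the same reason Psma3 was not read from the probe set it shares with Psma3l, whose mean level is 12.00. Psma3 was read from a probe set with a mean level of 7.38, the lowest of the 39.

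The hepatocytes were seeded on a layer of collagen gel in medium with fetal bovine serum, epidermal growth factor, insulin, glucagon and hydrocortisone. One set of cultures, called monolayer here, was kept on that single gel, and the other, called sandwich, was overlaid with a second layer of collagen about a day after seeding. The labels name the sandwich as the stable control and the confluent monolayer as the unstable one. RNA was collected 1, 2, 3 and 8 days later, with 3 arrays for each culture and day, 24 in all. Strain, sex and age of the animals are not given in the sources used here, and nothing in them says whether the 3 samples of a group came from separate animals or cultures, so p-values measure only the spread between these samples, which may be technical. Values are log2 probe set levels from Affymetrix arrays, and the number of arrays limits their precision.

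The proteasome is the main machine of regulated protein breakdown in the cytosol and nucleus. Its barrel-shaped core is built from rings of alpha subunits, which control entry, and rings of beta subunits, of which Psmb5, Psmb6 and Psmb7 carry the cutting sites. The regulatory particle binds ubiquitin-tagged proteins, and its ring of ATPases (Psmc1 to Psmc6) unfolds them and feeds them into the core. Interferons induce Psmb8, Psmb9 and Psmb10, which take the place of the constitutive cutting subunits to form the immunoproteasome, and Psme1 and Psme2, which form the activator PA28; both favour the making of peptides for presentation on MHC class I molecules. In the liver, hepatocytes turn over much protein by this route.

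The promoters of the 3 immunoproteasome genes and of Psme2 are shown because interferons induce these genes, and that of Psmb5 as a constitutive counterpart. Each runs from 250 bases before the annotated start of the gene to 10 bases after it, read 5′ to 3′ along the gene's strand, from RefSeq on the rat assembly GRCr8. Capitals mark, in the first 4, matches to the interferon-stimulated response element (GAAA, any 2 bases, then GAAA) or the interferon gamma-activated site TTCNNNGAA, and in Psmb5 a match to the antioxidant response element core TGACNNNGC, each searched on both strands.
Psmb8, chr20:4657022-4657281, minus strand: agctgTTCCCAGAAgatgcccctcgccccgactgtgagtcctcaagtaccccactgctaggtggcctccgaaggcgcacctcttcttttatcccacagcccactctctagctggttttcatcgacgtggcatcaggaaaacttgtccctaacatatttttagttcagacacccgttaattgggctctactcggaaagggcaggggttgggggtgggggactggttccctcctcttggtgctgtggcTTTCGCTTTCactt
Psmb9, chr20:4668750-4669009, plus strand: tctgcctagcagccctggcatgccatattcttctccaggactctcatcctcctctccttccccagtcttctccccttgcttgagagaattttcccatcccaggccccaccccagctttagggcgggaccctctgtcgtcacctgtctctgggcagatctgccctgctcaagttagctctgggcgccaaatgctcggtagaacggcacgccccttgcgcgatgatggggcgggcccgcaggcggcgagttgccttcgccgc
Psmb10, chr19:50743283-50743542, minus strand: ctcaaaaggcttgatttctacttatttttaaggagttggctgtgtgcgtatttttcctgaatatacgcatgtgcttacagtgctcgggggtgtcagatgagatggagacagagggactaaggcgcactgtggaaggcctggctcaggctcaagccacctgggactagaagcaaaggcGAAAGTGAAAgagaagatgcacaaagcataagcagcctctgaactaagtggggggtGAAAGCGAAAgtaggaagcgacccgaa
Psme2, chr15:33052742-33053001, minus strand: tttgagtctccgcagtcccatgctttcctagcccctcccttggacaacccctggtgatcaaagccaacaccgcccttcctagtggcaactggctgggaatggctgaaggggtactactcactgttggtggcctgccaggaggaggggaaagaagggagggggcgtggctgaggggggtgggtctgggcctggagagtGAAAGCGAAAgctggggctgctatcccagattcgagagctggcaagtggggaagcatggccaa
Psmb5, chr15:32047370-32047629, minus strand: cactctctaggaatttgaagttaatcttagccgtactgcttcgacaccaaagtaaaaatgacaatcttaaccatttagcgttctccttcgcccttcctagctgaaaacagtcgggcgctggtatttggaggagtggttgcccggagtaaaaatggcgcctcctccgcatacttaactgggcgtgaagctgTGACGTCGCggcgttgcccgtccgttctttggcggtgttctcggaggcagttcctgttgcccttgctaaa

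Promoter sequences of 300 bases, to 50 bases after the start, were at hand for 35 of the 39 proteasome genes, matched by gene identifier. The interferon-stimulated element was found in 6 of the 35 (17.1%): Psmb8, at the start site itself, Psmb10, with 2 matches, Psme2, Psma4, Psmb3 and Psmd7. It is in 3.92% of all 33469 promoters of that length. Psmb9 had no match in this window, which says only that these letters are not there. TGACNNNGC, a core bound by factors of the NRF family that drive proteasome genes, was found in 7 of the 35 (20.0%), Psma3, Psmb2, Psmb5, Psmd1, Psmd3, Psmd9 and Psme4, against 12.1% of all promoters. CCAAT was found in 18 of the 35 (51.4%) against 37.5% of all. TTCNNNGAA was in 4 of the 35 (11.4%), against 8.87% of all. The heat shock element GAANNTTC was in 3 of the 35 (8.57%), against 8.59% of all. In RefSeq's gene order on chromosome 20, Tap2, Psmb8, Tap1 and Psmb9 follow one another, and on chromosome 15 only Emc9 lies between Psme1 and Psme2.

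Of the measured hepatocyte markers, none of 9 had a mean level under the median of all probe sets, 5.62. In the sandwich at day 8, 8 of 9 were called higher (limma adjusted p under 0.05). Of all genes 15.6% were called higher and 20.7% lower there. Of the lymphocyte markers 9 of 10, and of the endothelial markers 9 of 9, lay under the median of all probe sets. Macrophage markers lay under it for 3 of 10 (Cd163, Csf1r and Adgre1). In the sandwich, 9 of 10 were called higher at day 3, beside 10.9% of all genes, and 1 higher and 2 lower at day 8. Stellate and fibroblast markers lay under the median of all probe sets for 6 of 10, and their mean level was 4.90 to 5.13 on day 1 arrays and 5.76 to 6.09 on day 8 arrays of both cultures. Of these 10, 1 was called higher and 3 lower in sandwich at day 8. The mean level of the endothelial markers at day 8 was 4.04 to 4.17 in monolayer and 4.56 to 4.66 in sandwich. Of these 9, 2 were called higher and 0 lower in sandwich, with a median difference of 0.088 and a highest of 4.069 (log2). Cholangiocyte markers lay under the median of all probe sets for 4 of 7, and their mean level on day 8 arrays was 6.76 to 6.80 in monolayer and 5.55 to 5.75 in sandwich. Of these 7, 0 were called higher and 3 lower in sandwich at day 8, with a median difference of -0.234 and a lowest of -3.22. The 3′ minus 5′ level of the beta-actin control, a sign of RNA quality, was 0.824 ± 0.044 (SD, n = 12) in monolayer and 0.985 ± 0.114 (SD, n = 12) in sandwich. That of the GAPDH control was 0.274 ± 0.066 (SD, n = 12) in monolayer and 0.320 ± 0.101 (SD, n = 12) in sandwich. The part of these values in the results was not tested. In bulk RNA, fewer cells of a type and less RNA per cell cannot be told apart.

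About as many proteasome genes were lower at day 8 than at day 1 in one culture as in the other, and few differed between the cultures before day 8. The largest falls were those of the immunoproteasome gene Psmb8, and the rises were few. Of the 39, 21 had their highest group mean in monolayer at day 1 and 19 their lowest in sandwich at day 8. The same counts were not made over all genes, so they cannot be read as particular to proteasome genes. Over all 41 members the span from the lowest to the highest group mean ran from 0.201 to 1.528 on the log2 scale with a median of 0.421, beside a median spread between replicates of 0.099 (SD pooled over groups). A range over 8 group means and an SD of single arrays are unlike measures, so their ratio gives no size of effect. The span was not computed over all genes. Counts below are genes with a Benjamini-Hochberg adjusted p under 0.05 in limma, a moderated linear model fitted to all 24 arrays. Against day 1, 2 of the 39 were lower in monolayer at day 2 (Psmd5 and Psmb8), 18 (46.2%) at day 3 and 19 (48.7%) at day 8. Of all genes, 3.42%, 15.1% and 21.2% were lower in these comparisons, and 6.98% were called in either direction at day 2. In sandwich 1 of the 39 (Psmb8) was lower at day 2, 10 (25.6%) at day 3 and 20 (51.3%) at day 8, where 3.97%, 9.62% and 17.5% of all genes were lower. Among the 5754 genes with a level of at least 7.38, where calls are more frequent, 26.1% were lower in monolayer at day 3 and 36.4% at day 8, and 16.4% in sandwich at day 3 and 28.4% at day 8. The median change of the 39 at day 8 was -0.25 in monolayer and -0.24 in sandwich, beside -0.12 and -0.065 among those 5754 genes. Calls of a rise were 2 in monolayer at day 8 (Psma3 and Psmc3) and 3 in sandwich (Psma3, Psma6 and Psmd10), beside 17.5% and 14.3% of all genes. At day 3 in sandwich, 11 of the 41 members were called (19.8% of all genes), and 7 without sandwich day 1 replicate 2 or 5 without sandwich day 3 replicate 3. At day 2 in monolayer, 2 of the 41 were called, and 1 without monolayer day 1 replicate 1 or without monolayer day 2 replicate 3.

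**Figure D1:**
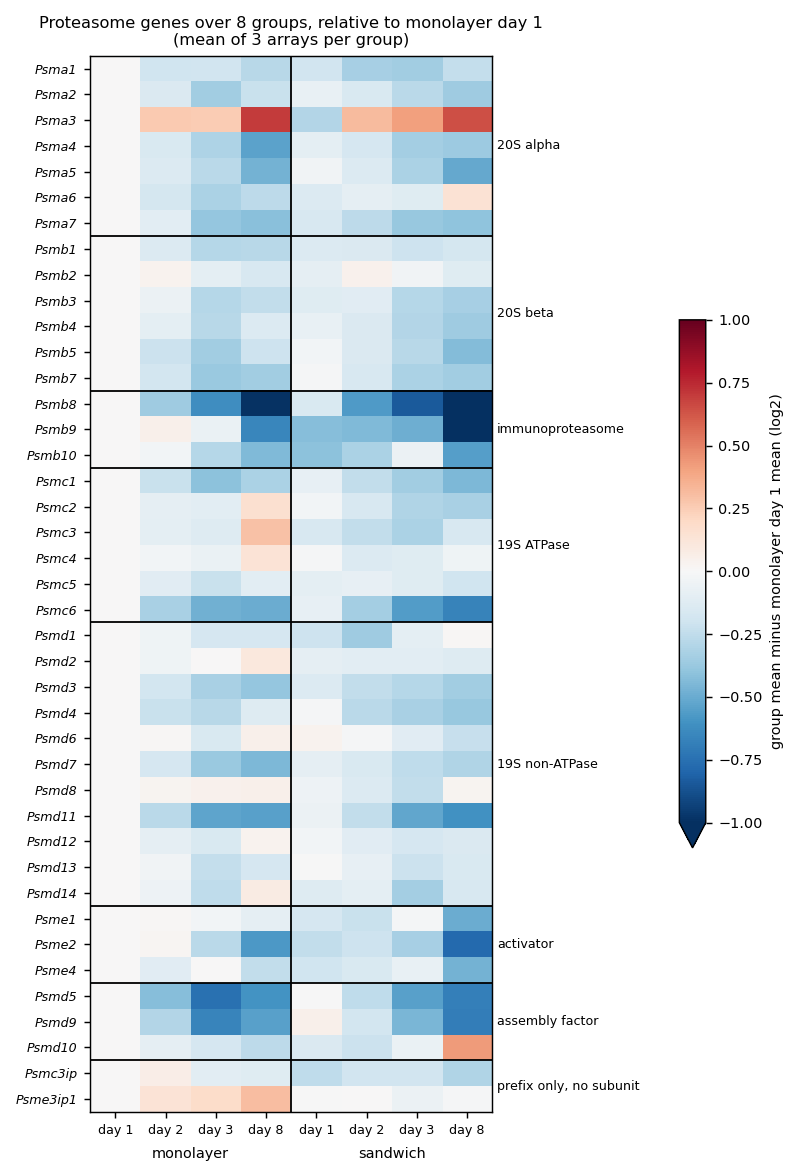
Each row is a member gene, each column a group (4 days of monolayer, then 4 of sandwich), and the colour the group mean of 3 arrays minus that gene's monolayer day 1 mean (log2; colours end at -1 and 1). Blue prevails at days 3 and 8 in both cultures, at day 8 darkest for Psmb8 and Psmb9, while Psma3 is red in both cultures at day 8 and Psmd10 in sandwich at day 8.

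Most core particle genes fell. Of its 13 alpha and beta genes, 10 were lower at day 3 in monolayer (median -0.29) and 9 at day 8 (median -0.26), while 3 were lower at day 3 in sandwich (median -0.20) and 7 at day 8 (median -0.24). These are 76.9% and 69.2% of the core genes in monolayer, beside 26.1% and 36.4% of the genes with a level of at least 7.38, and 23.1% and 53.8% in sandwich, beside 16.4% and 28.4%. The day 1 levels these changes start from were not equal. At day 1 all 13 lay lower in sandwich (median -0.094), with 0 called. For 5 of them (38.5%) all sandwich arrays lay below all monolayer arrays, beside 13.1% of all genes. At day 3 the median culture difference of the 13 was 0.059, with 0 called. Psma5, an alpha ring subunit, read 10.93, 10.94 and 10.94 on the monolayer arrays of day 1 and 10.46, 10.48 and 10.46 at day 8. On sandwich arrays it read 10.81, 10.99 and 10.91 at day 1 and 10.40, 10.46 and 10.42 at day 8. All day 8 arrays lay below all day 1 arrays, and the cultures did not separate. Of all genes 26.6% lay so below day 1 within monolayer and 23.0% within sandwich. Of those with a level of at least 7.38, 42.4% and 35.1% did. The change was -0.47 (SE 0.07, limma adjusted p = 1.41e-05) in monolayer and -0.47 (SE 0.07, limma adjusted p = 1.83e-05) in sandwich. Psma4, also of the alpha ring, fell by 0.54 in monolayer (SE 0.08, limma adjusted p = 3.81e-06) and by 0.27 in sandwich (SE 0.08, limma adjusted p = 0.0104), the latter lost without sandwich day 1 replicate 3 (adjusted p = 0.0776). The difference between these changes was 0.27 (SE 0.11, adjusted p = 0.102) and missed the threshold. Psma7, another alpha subunit, fell by 0.41 in monolayer at day 8 (SE 0.08, limma adjusted p = 0.000226), and had fallen by 0.39 at day 3 (limma adjusted p = 0.000962). In sandwich it fell by 0.25 at day 8 (limma adjusted p = 0.0273), a call lost without sandwich day 1 replicate 2 or 3 or day 8 replicate 1 or 2. Psmb1, a structural beta subunit, fell by 0.28 in monolayer at day 8 (SE 0.07, limma adjusted p = 0.00305) and changed by -0.04 in sandwich, which was not called. The difference between these changes was not called either. The falls of Psma1 (0.28, limma adjusted p = 0.0347), Psma2 (0.22, limma adjusted p = 0.0395) and the beta subunit Psmb3 (0.25, limma adjusted p = 0.0492) in monolayer at day 8 are each lost on leaving out most of the 6 arrays compared. In sandwich at day 8 the alpha subunit Psma2 fell by 0.28 (limma adjusted p = 0.0129), lost without sandwich day 1 replicate 2 or day 8 replicate 1. The beta subunit Psmb2 was called in no comparison with day 1 at days 3 and 8, nor between the cultures.

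Psmb5, the chymotrypsin-like cutting subunit, read 11.41, 11.49 and 11.44 in monolayer at day 1, 11.02, 11.15 and 11.14 at day 3 and 11.16, 11.17 and 11.40 at day 8. Sandwich arrays read 11.28, 11.50 and 11.49 at day 1, 11.14, 11.16 and 11.21 at day 3 and 10.93, 11.04 and 11.08 at day 8. Monolayer was lowest at day 3 and sandwich at day 8. The day 8 change was -0.41 in sandwich (SE 0.08, limma adjusted p = 0.000557) and -0.20 in monolayer (adjusted p = 0.0675). The difference between these changes was not called (limma adjusted p = 0.32). The sandwich was called lower at day 8 by -0.23 (SE 0.08, limma adjusted p = 0.0428), with 3 arrays below all 3 of monolayer, a call lost on leaving out monolayer replicate 3 or sandwich replicate 1 or 2 of day 8. Its next probe set, with a mean of 5.37, differed by 0.04 there (adjusted p = 0.817). Psmb7, the trypsin-like cutting subunit, fell by 0.35 in monolayer (SE 0.12, limma adjusted p = 0.0218) and by 0.34 in sandwich (SE 0.12, limma adjusted p = 0.0325), and the cultures differed at day 8 by less than 0.01. The first call is lost without monolayer day 1 replicate 1 or day 8 replicate 2, and the second without sandwich day 1 replicate 1 or 2 or day 8 replicate 2 or 3. Psmb4, a structural beta subunit, differed by -0.22 between the cultures at day 8, which was not called (adjusted p = 0.0718).

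Psma3 and Psma6, both alpha ring subunits, moved otherwise. Psma3 read 7.0, 7.08 and 7.21 in monolayer and 6.90, 6.69 and 6.81 in sandwich at day 1, and 7.83, 7.87 and 7.67 against 7.69, 7.90 and 7.64 at day 8. All day 8 arrays lay above all day 1 arrays, as for 23.0% of all genes within monolayer and 19.1% within sandwich. The rise was 0.70 in monolayer (SE 0.11, limma adjusted p = 1.94e-05) and 0.94 in sandwich (SE 0.11, limma adjusted p = 3.9e-07), where it was called from day 2. It rests on the probe set with a mean of 7.38, and the brighter one shared with Psma3l, with a mean of 12.00, was not examined. Psma6 read 12.15, 12.26 and 12.23 in monolayer at day 1 and 11.77, 11.90 and 12.18 at day 8, with replicate 3 above the other two. The sandwich values were 11.99, 12.11 and 12.14 at day 1 and 12.35, 12.27 and 12.46 at day 8. At day 8 all sandwich arrays lay above all monolayer arrays, as for 21.1% of all genes, with a difference of 0.41 (SE 0.10, limma adjusted p = 0.00188). The change from day 1 differed between the cultures by 0.54 (SE 0.14, limma adjusted p = 0.00601). Within a culture the calls were less firm: -0.26 in monolayer (adjusted p = 0.0403) and 0.28 in sandwich (adjusted p = 0.0345). The first is lost without monolayer day 1 replicate 2 or 3 or day 8 replicate 1 or 2, and the second without sandwich day 1 replicate 1 or 2 or day 8 replicate 1 or 3.

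Of the 17 regulatory particle genes, 5 were lower at day 3 in monolayer (median -0.22), and 4 were lower and 1 higher at day 8 (median -0.10). With arrays centred on their median the day 8 split was 5 lower and 0 higher, and after quantile normalization 4 lower and 2 higher. In sandwich 4 were lower at day 3 (median -0.16) and 6 at day 8 (median -0.15). The shares lower in monolayer, 29.4% at day 3 and 23.5% at day 8, lie near or below the 26.1% and 36.4% among genes with a level of at least 7.38. In sandwich they were 23.5% and 35.3%, beside 16.4% and 28.4%. Psmc1, an ATPase, fell by 0.31 in monolayer at day 8 (SE 0.08, limma adjusted p = 0.00225) and by 0.37 in sandwich (SE 0.08, limma adjusted p = 0.000697). Psmd7, a subunit of the lid that partners the deubiquitinase Psmd14, fell by 0.45 in monolayer (SE 0.09, limma adjusted p = 0.00035). Its sandwich change of -0.21 was not called (limma adjusted p = 0.097), nor was the difference between the changes, 0.24 (limma adjusted p = 0.272). In monolayer its next probe set was not called (adjusted p = 0.235). Psmd11, a lid subunit that stabilises the particle, fell by 0.54 in both cultures (SE 0.09, limma adjusted p = 5.26e-05 and 7.35e-05). Its probe sets disagree: the second, with a mean of 9.57, changed by -0.01 in monolayer and 0.25 in sandwich, neither called.

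Psmc2, an ATPase, read 11.54, 11.54 and 11.55 in monolayer at day 1 and 11.66, 11.68 and 11.78 at day 8. Sandwich arrays read 11.50, 11.49 and 11.55 at day 1 and 11.18, 11.17 and 11.32 at day 8. The cultures overlapped at day 1 and separated at day 8, when all monolayer arrays lay above and all sandwich arrays below those of day 1 in the same culture. Of all genes 23.0% lay so above in monolayer, and 23.0% so below in sandwich. The day 8 difference was -0.48 (SE 0.07, limma adjusted p = 1e-05), and the sandwich change of -0.29 was called (SE 0.07, limma adjusted p = 0.00335), while the monolayer change of 0.16 was not (adjusted p = 0.1). Psmc3, another ATPase, read 10.16, 10.18 and 10.17 in monolayer at day 1 and 10.42, 10.45 and 10.53 at day 8. The sandwich values were 9.91, 9.93 and 10.19 at day 1 and 9.98, 10.10 and 9.96 at day 8. Monolayer rose and sandwich stayed within its day 1 range. At day 8 the difference was -0.46 (SE 0.10, limma adjusted p = 0.000625), while the monolayer rise of 0.29 (adjusted p = 0.0199) is lost without monolayer day 1 replicate 1 or day 8 replicate 3 and with arrays centred on their median. Psmd6, a lid subunit, read 10.30, 10.31 and 10.49 in monolayer and 10.04, 10.16 and 10.04 in sandwich at day 8. These groups do not overlap, and the difference was -0.28 (SE 0.075, limma adjusted p = 0.00493). Psmd2, a base scaffold that binds ubiquitin-like domains, differed at day 8 by -0.23 (adjusted p = 0.0349) and Psmd4, a ubiquitin receptor, by -0.25 (adjusted p = 0.0386). Both calls are lost with arrays centred on their median, on leaving out monolayer day 8 replicate 2 or 3 or sandwich day 8 replicate 1, and for Psmd2 also sandwich day 8 replicate 3. Psmd14, the deubiquitinase of the lid, differed by -0.25 (adjusted p = 0.0889), and its second probe set by -0.34 (limma adjusted p = 0.00149). Psmd1, a base scaffold, had the fourth largest difference between the changes from day 1 to day 8, 0.39 (SE 0.23, adjusted p = 0.327), which was not called. Psmd8, a lid subunit, differed between the cultures at day 3 by -0.29 (SE 0.08, limma adjusted p = 0.0104), a call lost without sandwich day 3 replicate 1 (adjusted p = 0.0564). Of the others, the lid subunit Psmd3 fell by 0.39 in monolayer at day 8 (limma adjusted p = 0.00858), lost without monolayer day 1 replicate 1 or day 8 replicate 2, and the ATPase Psmc6 fell by 0.58 in sandwich (SE 0.20, limma adjusted p = 0.0295), lost without sandwich day 1 replicate 1 or any array of day 8. The probe sets of Psmc6 disagree, the second changing by -0.35 (adjusted p = 0.281) and the third, with a mean of 6.21, by 0.31 (adjusted p = 0.217). The ATPases Psmc4 and Psmc5 and the lid subunits Psmd12 and Psmd13 were not called at days 3 or 8, in either culture or between them.

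Psmb8 and Psmb9 fell in both cultures and were lower in sandwich at day 8, and Psmb10 fell in monolayer. Psmb8, which replaces Psmb5, read 9.94, 9.84 and 9.94 in monolayer at day 1, 9.56, 9.68 and 9.41 at day 2, 9.33, 9.39 and 9.15 at day 3 and 9.01, 8.84 and 8.90 at day 8. In sandwich it read 9.67, 9.74 and 9.86 at day 1, 9.33, 9.32 and 9.38 at day 2, 9.04, 9.15 and 9.00 at day 3 and 8.37, 8.38 and 8.40 at day 8. The group mean was lower on each later day in both cultures, and all sandwich arrays lay below all monolayer arrays at days 2 and 8. For all genes these shares were 14.1% at day 2 and 24.8% at day 8. By day 8 it had fallen by 0.99 in monolayer (SE 0.09, 1.99-fold, limma adjusted p = 1.09e-09) and by 1.38 in sandwich (SE 0.09, 2.6-fold, limma adjusted p = 4.75e-12). The day 8 difference was -0.54 (SE 0.09, limma adjusted p = 2.12e-05), and over the mean of the 4 days -0.28 (SE 0.04, limma adjusted p = 1.11e-05). The difference between the changes, -0.39 (SE 0.12, limma adjusted p = 0.029), is less firm. It is lost with arrays centred on their median (adjusted p = 0.104) and on leaving out monolayer day 1 replicate 2, monolayer day 8 replicate 1, sandwich day 1 replicate 3, or sandwich day 8 replicate 1 or 2.

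Psmb9, which replaces Psmb6, read 9.63 on each monolayer array of day 1, 9.62, 9.85 and 9.57 at day 2, 9.53, 9.63 and 9.53 at day 3 and 8.99, 8.97 and 8.97 at day 8. In sandwich it read 9.17, 9.14 and 9.30 at day 1, 9.12, 9.04 and 9.39 at day 2, 9.19, 9.18 and 9.05 at day 3 and 8.43, 8.42 and 8.43 at day 8. It was the only one of the 41 members called between the cultures on all 4 days, with all 3 sandwich arrays below all 3 monolayer arrays each day. Of all genes 13.1%, 14.1%, 18.5% and 24.8% lay so at days 1, 2, 3 and 8. Among genes with a level of at least 7.38, 22.1%, 21.7%, 24.7% and 32.8% did. These are shares of single days, not of all 4 days together. The differences were -0.43, -0.49, -0.43 and -0.55 at days 1, 2, 3 and 8 (SE 0.09 each), with limma adjusted p of 0.00899, 0.000698, 0.00105 and 2.69e-05. Leaving out sandwich day 1 replicate 1 or 2 lost the call at day 1 (adjusted p up to 0.0622). At day 3 the change from day 1 was -0.06 in each culture and was not called. At day 8 Psmb9 had fallen by 0.65 in monolayer (SE 0.09, limma adjusted p = 2.21e-06) and 0.78 in sandwich (SE 0.09, limma adjusted p = 2.28e-07). Psmb10, which replaces Psmb7, read 8.26, 8.30 and 8.27 in monolayer at day 1 and 7.82, 7.76 and 7.94 at day 8. In sandwich its arrays spread more, with 7.54, 7.87 and 8.19 at day 1, 8.22, 8.29 and 8.14 at day 3 and 7.54, 7.70 and 7.94 at day 8. Unlike Psmb8 and Psmb9, it lay higher in sandwich at day 3, by 0.222, which was not called. All 3 sandwich arrays lay above all 3 monolayer arrays that day, as for 18.5% of all genes. Only the monolayer fall of 0.44 was called (SE 0.12, limma adjusted p = 0.00716). In the sandwich the day 8 change was -0.14, not called, and neither was the difference between the changes of the cultures. Lymphocytes and macrophages express the immunoproteasome constitutively. The mean level of the lymphocyte markers was 4.68 to 4.97 on all 24 arrays, and that of the macrophage markers at day 8 was 6.95 to 7.13 in monolayer and 6.88 to 7.13 in sandwich; their part in these results was not tested.

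**Figure D2:**
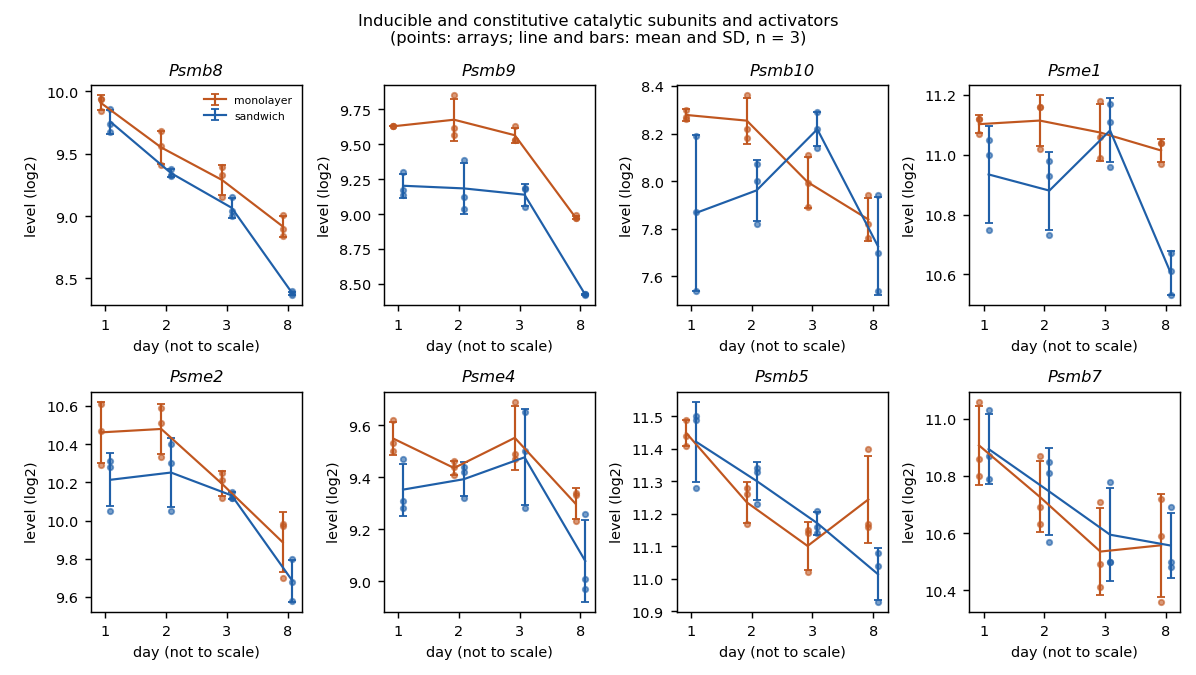
Each panel shows a gene's log2 level (vertical axis) by day (horizontal axis, not to scale) in monolayer (orange) and sandwich (blue); points are arrays, lines join means and bars are SDs of 3 arrays. Psmb8 falls steadily in both cultures, Psmb9 lies lower in sandwich on every day and drops between days 3 and 8, and the constitutive Psmb5 and Psmb7 move within narrower ranges.

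Of the activators, Psme1 (PA28 alpha) read 11.12, 11.12 and 11.07 in monolayer at day 1 and 11.04, 10.97 and 11.04 at day 8, against 11, 10.75 and 11.05 and then 10.53, 10.61 and 10.67 in sandwich. The sandwich arrays of day 8 were the lowest of all 24, and the monolayer change of -0.09 was not called. The sandwich was lower at day 8 by -0.41 (SE 0.09, limma adjusted p = 0.00108), beside a difference of 0.04 in the gene's second probe set, whose mean is 5.97. The fall within the sandwich was 0.33 (limma adjusted p = 0.00793) and is lost without sandwich day 1 replicate 3 (adjusted p = 0.0563). The difference between the changes of the cultures was not called (-0.24, limma adjusted p = 0.256). Psme2 (PA28 beta) read 10.29, 10.47 and 10.61 in monolayer at day 1 and 9.70, 9.98 and 9.97 at day 8, and 10.05, 10.28 and 10.31 and then 9.58, 9.68 and 9.80 in sandwich. All day 8 arrays lay below all day 1 arrays in each culture, as for 26.6% of all genes in monolayer and 23.0% in sandwich. It fell by 0.57 in monolayer (SE 0.11, limma adjusted p = 0.000139) and by 0.53 in sandwich (SE 0.11, limma adjusted p = 0.000489). Over the mean of the 4 days it was lower in sandwich by -0.18 (SE 0.05, limma adjusted p = 0.0103). Psme4 (PA200), an activator of the nuclear core particle, is read by 3 probe sets that disagree. The first changed by -0.25 in monolayer and -0.27 in sandwich at day 8 (adjusted p = 0.0514 and 0.039), the second by -0.36 and -0.21 (adjusted p = 0.00365 and 0.12), and the third, with a mean of 6.41, by 1.22 and 0.73 (limma adjusted p = 1.63e-08 and 5.08e-05). The direction of this gene therefore depends on the probe set.

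The assembly factors Psmd5, Psmd9 and Psmd10 are chaperones that build the base of the regulatory particle and leave it once made. Psmd5 read 10.35, 10.41 and 10.35 in monolayer at day 1, 9.96, 10.05 and 9.83 at day 2, 9.60, 9.65 and 9.61 at day 3 and 9.64, 9.77 and 9.91 at day 8. In sandwich it read 10.33, 10.31 and 10.46, then 10.14, 10.13 and 10.08, then 9.83, 9.89 and 9.77, and 9.57, 9.81 and 9.68 at day 8. The cultures overlapped at day 1, and the lowest group mean was at day 3 in monolayer and at day 8 in sandwich. At day 3 the fall was 0.75 in monolayer (SE 0.08, limma adjusted p = 3.36e-07) and 0.54 in sandwich (SE 0.08, limma adjusted p = 4.45e-05), and at day 8 0.59 and 0.68. Psmd9 also fell, at day 3 by 0.66 in monolayer (limma adjusted p = 1.22e-05) and by 0.51 in sandwich (limma adjusted p = 0.000382), and at day 8 by 0.54 and 0.75; its second probe set, with a mean of 5.33, changed by 0.06 and -0.11 at day 8, neither called. Psmd10, known as gankyrin, a liver oncoprotein, rose in sandwich. It read 8.30, 8.42 and 8.43 in sandwich at day 1 and 8.77, 9.11 and 8.98 at day 8, and 8.42, 8.54 and 8.62 and then 8.11, 8.43 and 8.25 in monolayer. All sandwich arrays of day 8 lay above all other arrays. Of all genes 21.1% had them above all monolayer arrays of day 8, and 19.1% above all sandwich arrays of day 1. The sandwich rise was 0.57 (SE 0.11, limma adjusted p = 0.000275), the monolayer change of -0.26 was not called, and the day 8 difference was 0.69 (SE 0.11, 1.61-fold, limma adjusted p = 2.18e-05). The change from day 1 differed between the cultures by 0.83 (SE 0.155, limma adjusted p = 0.000328).

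**Figure D3:**
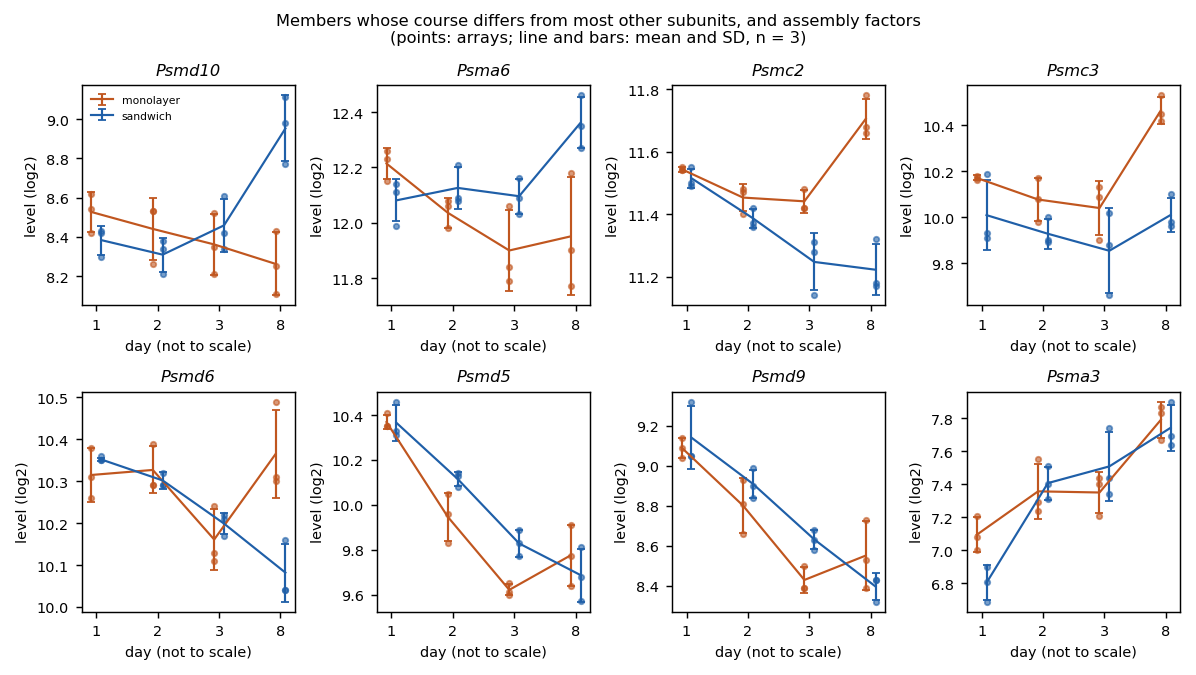
Each panel shows a gene's log2 level (vertical axis) by day (horizontal axis, not to scale) in monolayer (orange) and sandwich (blue); points are arrays, lines join means and bars are SDs of 3 arrays. Psmd10 and Psma6 end higher in sandwich and Psmc2, Psmc3 and Psmd6 lower, while Psmd5 and Psmd9 fall and Psma3 rises in both cultures.

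Between the cultures, 1 of the 39 proteasome genes was called at day 1 and 1 at day 2 (Psmb9 each time), 2 at day 3 (Psmb9 and Psmd8) and 11 at day 8. Of all genes 2.57%, 8.67%, 22.7% and 36.3% were called on these days. At day 8, 2 of the 39 were higher in sandwich (5.13%, beside 15.6% of all genes) and 9 lower (23.1%, beside 20.7%), and 11 had all sandwich arrays below all monolayer arrays (28.2%, beside 24.8%). Of the genes with a level of at least 7.38, 53.2% were called at day 8, 25.2% higher and 28.1% lower. Among them 32.8% had all sandwich arrays below all monolayer arrays, so the shares of the 39 lie below these. The share of the 39 called was below that of all genes at days 2, 3 and 8. Over the mean of the 4 days 1 was higher and 9 lower (25.6%, beside 37.9% of all genes). The median difference was -0.11 at day 8, beside 0.003 for all genes and -0.03 for those with a level of at least 7.38. Of the 13 core genes 1 was higher and 1 lower, of the 17 regulatory genes 5 were lower, and of the 3 immunoproteasome genes 2. The change from day 1 to day 8 differed between the cultures for 5 genes, 12.8% of the 39 beside 21.8% of all genes. These were Psmd10 and Psma6 upward, and Psmc2, Psmd6 and Psmb8 downward in sandwich relative to monolayer. For the others, also those whose change was called in only 1 culture, the difference between the changes was not called. With arrays centred on their median the split was 2 upward and 1 downward, and after quantile normalization 2 and 4. Without sandwich day 8 replicate 1 the 5 calls became 3, with Psmd6 and Psmb8 lost. The moderated F test of any change in the culture difference over the 4 days called Psmd10, Psmc2 and Psma6, beside 21.2% of all genes. For Psmd6, -0.32 (adjusted p = 0.0387), the call is lost in 8 of 12 fits that leave out an array: monolayer day 1 replicate 1 or 3, monolayer day 8 replicate 3, each sandwich array of day 1, and sandwich day 8 replicate 1 or 3.

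**Figure D4:**
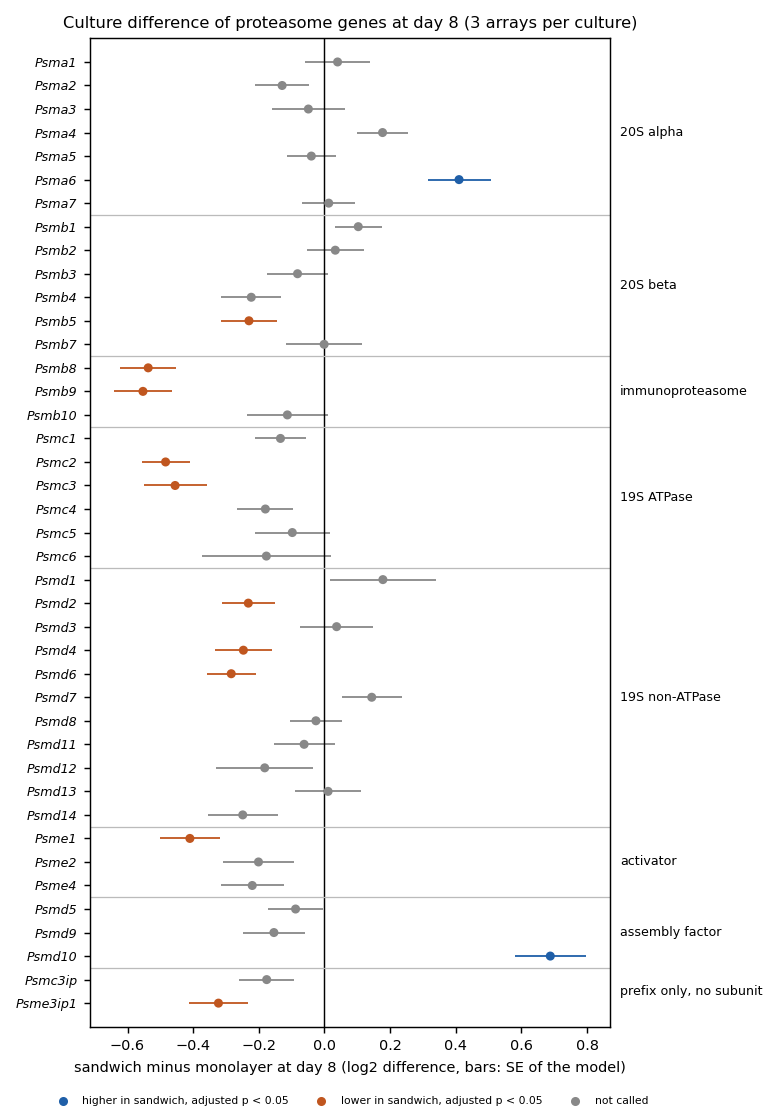
Each row is a member gene and the horizontal axis the sandwich minus monolayer difference at day 8 (log2), with bars for the SE of the model and 3 arrays per culture. Grey genes, the majority, were not called; Psmd10 and Psma6 lie to the right, and Psmb9, Psmb8, Psmc2, Psmc3 and Psme1 farthest to the left.

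Genes around the proteasome were read from 4 lists. At day 8, 15.6% of all genes were higher and 20.7% lower in sandwich. Among genes with a level of at least 7.38, 25.2% were higher and 28.1% lower. Of 17 measured genes of MHC class I processing and interferon regulation, 8 (47.1%) were lower and 3 (17.6%) higher in sandwich at day 8. Tap1 and Tap2, which pump peptides into the endoplasmic reticulum and lie beside Psmb8 and Psmb9, differed by -0.61 (SE 0.09, limma adjusted p = 5.75e-06) and -0.76 (SE 0.10, limma adjusted p = 2.4e-06). Gbp2, an interferon-induced GTPase, read 7.01, 6.91 and 6.88 in monolayer and 4.06, 4.27 and 4.34 in sandwich at day 8, the latter below the median of all probe sets, 5.62, as was its mean over all arrays. It differed by -2.71 (limma adjusted p = 2.97e-14), having risen by 1.54 in monolayer (limma adjusted p = 7.7e-10) and fallen by 0.43 in sandwich (limma adjusted p = 0.0154), and the class I heavy chain gene RT1-CE5 by -1.39 (limma adjusted p = 2.43e-10). Against day 1, 10 of the 17 (58.8%) were lower in monolayer and 10 in sandwich at day 8, beside 21.2% and 17.5% of all genes, with 1 higher in each. Of genes with a level of at least 7.38, 36.4% and 28.4% were lower. Of 10 assembly and inhibitor genes, 1 (10.0%) was higher and 3 (30.0%) lower in sandwich at day 8: Psmg4, a chaperone of the alpha ring, by 0.45 (limma adjusted p = 0.000363), Psmf1, the inhibitor PI31, by -0.58 (limma adjusted p = 8.08e-05), Akirin2, which brings proteasomes into the nucleus, by -0.45 (limma adjusted p = 0.0016), and Psmg3, partner of Psmg4, by -0.25 (adjusted p = 0.0467). Of 16 ubiquitin genes, receptors and deubiquitinases, 6 (37.5%) were lower and 0 higher. They include Ubqln2, a shuttle of tagged proteins, by -0.83 (limma adjusted p = 2.09e-06), Vcp, an ATPase that extracts tagged proteins, by -0.39 (adjusted p = 0.000552), Usp14, a proteasome-bound deubiquitinase, by -0.38 (adjusted p = 0.00112), and the ubiquitin-activating enzyme gene Uba1, by -0.40 (adjusted p = 0.0086). Of 16 regulators of proteasome genes, 3 were higher and 3 lower (18.8% each), near the shares of all genes. Nfe2l2, the oxidative stress factor NRF2, differed by -0.81 (SE 0.08, limma adjusted p = 7.21e-09), having risen by 0.50 in monolayer and fallen by 0.33 in sandwich. Nfe2l1, the factor NRF1 that restores proteasome genes when the proteasome is inhibited, rose by 0.45 in monolayer (limma adjusted p = 0.0104) and by 0.62 in sandwich (limma adjusted p = 0.000951) and was not called between the cultures at day 8 (-0.15). Ngly1, the glycanase that processes NRF1, was higher in sandwich by 1.01 (limma adjusted p = 2.18e-05), as were Mafk, a small partner factor, by 0.71 (adjusted p = 2.38e-06) and the CCAAT-binding subunit gene Nfyc, by 0.46 (adjusted p = 0.000439).

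Of the genes that only share the prefix, Psme3ip1, whose protein binds the activator Psme3, rose by 0.31 in monolayer at day 8 (limma adjusted p = 0.00864) and was lower in sandwich by -0.32 (limma adjusted p = 0.00764). The first call is lost without monolayer day 8 replicate 3, and the second without that array or sandwich day 8 replicate 1. Psmc3ip, a meiotic recombination cofactor, was lower in sandwich over the mean of the 4 days by -0.20 (SE 0.04, limma adjusted p = 0.000757).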

How the data were processed

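The 24 arrays are Affymetrix arrays of total RNA. The deposited table holds log2 probe set values of all arrays, and per the submitters' processing notes the tools named are RMA and limma; versions and the genome build are not given in the sources used here. Array medians lay between 5.57 and 5.67, so no further scaling was done. After leaving out 57 control probe sets, 31042 were tested; 20826 of them carry 1 gene symbol of the platform annotation, 436 several and 9780 none. Each gene was read by the probe set with the highest mean. limma 3.58.1 in R 4.3.3 fitted a mean for each of the 8 groups to all 24 arrays (16 residual degrees of freedom), and p-values, two-sided, were adjusted by Benjamini-Hochberg over 31042 probe sets per comparison and called under 0.05. The pipeline was tested on simulated data. Members and lists were chosen with earlier results of these data known. Any member may be named; the rule for full statistics takes the 2 members of each class with the largest day 8 culture difference, the catalytic and activator genes, the 3 largest rises and falls by day 8 per culture, and the 5 largest differences between those changes; the other members given values (Psma1, Psma2, Psma5, Psma7, Psmb1, Psmb3, Psmc1, Psmc6, Psmc3ip and Psmd2, Psmd3, Psmd4, Psmd7, Psmd8 and Psmd11) fall outside that rule and were chosen after their values were seen. Of each related list the 4 genes with the smallest adjusted p at day 8 are named, and Nfe2l1 was added after its values were seen. Culture differences are sandwich minus monolayer, and changes are taken against day 1 of the same culture. Alternatives are given in the closing section.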

Additional observations from a re-analysis of the deposited data

Results flagged for a closer look

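For 5 of the 39 proteasome genes the change from day 1 to day 8 differed between the cultures by limma's test of that difference (3 arrays per group). Of all genes 21.8% were called so, and 33.9% of those with a level of at least 7.38. For Psmd10, the assembly chaperone gankyrin, sandwich minus monolayer was 0.831 (adjusted p = 0.000328). For Psma6, an alpha ring subunit, it was 0.543 (adjusted p = 0.00601). For Psmc2, an ATPase, it was -0.455 (adjusted p = 0.00237). For Psmb8, an immunoproteasome subunit, it was -0.385 (adjusted p = 0.029). For Psmd6, a lid subunit, it was -0.321 (adjusted p = 0.0387). The calls of Psmb8 and Psmd6 are lost with arrays centred on their median (limma adjusted p = 0.104 and 0.134). Of 12 fits that leave out an array, 5 lose the call of Psmb8 and 8 that of Psmd6. The moderated F test of whether the culture difference changed over all 4 days called 3 genes of 41 (7.32%), beside 21.2% of all genes. Its F was 12.659 for Psmd10 (adjusted p = 0.000681), 8.055 for Psmc2 (adjusted p = 0.00758) and 5.478 for Psma6 (adjusted p = 0.0379). Psmb8 and Psmd6 were not called by it.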

How the results depend on the processing

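Counts here are of the 41 members called by limma, and the counts over all genes moved with the setting too. With the replicate block, the fit with the replicate number as a term, 2 were called between the cultures at day 1 (1 without it) and 4 at day 2 in monolayer (2 without it), and other counts stayed within 1.5 times. Pairing by number was not adopted, since not every same-numbered pair correlated over 0.1: 56 of 84 did (range -0.433 to 0.534). The median was 0.204, against -0.127 for differently numbered pairs, and 18 of 24 arrays correlated best with an array of their own number, a hint of pairing from the data, not the design. Between the cultures at day 1, array weights gave 2 and adjustment over all comparisons together 3. At day 2 the interquartile range as a covariate, array weights, a filter on dim probe sets and adjustment over all comparisons gave 2 each, against 1. At day 3, where 2 were called, quantile normalization gave 4, the dim filter 5, and 1 was left with only the groups compared or a threshold of 0.01. There the dim filter called 1619 higher and 1646 lower of 9642 genes, against 1554 and 1675 of 14217 without it. At day 8 only the groups compared gave 7 of 12, and over the mean of the days the threshold of 0.01 gave 7 of 12. In monolayer at day 2 array weights gave 7, the dim filter and adjustment over all comparisons 4, and only the groups compared and the threshold of 0.01 gave 1. Of all 14217 genes, array weights called 924 higher and 1260 lower there, against 506 and 486 without them. Adjustment over all comparisons gave 706 and 755, and only the groups compared 371 and 295. At the threshold of 0.01, 11 of 18 were left in monolayer at day 3. In sandwich at day 2 the dim filter and adjustment over all comparisons gave 4 against 2. At day 3 only the groups compared gave 5 and the threshold of 0.01 gave 6 of 11, and at day 8 both gave 15 of 23. For the difference between the changes, centring on the array median and the threshold of 0.01 gave 3 of 5. For the interaction, against 3, the interquartile range gave 5 and the dim filter 6.

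On leaving out 1 array, counts ranged from 0 to 2 between the cultures at day 1 (0 without sandwich day 1 replicate 1 or 2), 1 to 3 at day 3 (1 without sandwich day 3 replicate 1), 1 to 2 in monolayer at day 2, 5 to 12 in sandwich at day 3 and 3 to 5 for the difference between the changes. Signs reversed in 8 values. With the next probe set of the gene, the culture difference at day 8 was 0.040 for Psmb5 and 0.039 for Psme1, and over the mean of the days 0.072 for Psme1. With it, changes from day 1 were 0.031 for Psme1 in sandwich at day 8, 0.065 for Psmd11 in monolayer at day 3 and 0.251 in sandwich at day 8, and 0.062 for Psmd9 in monolayer at day 8. With the mean of its probe sets, the change of Psme4 in sandwich at day 8 was 0.084. The cause was not tested. The number of arrays limits the precision, and the second probe sets of Psmb5, Psme1 and Psmd9, with means of 5.37, 5.97 and 5.33, lie near the median of all probe sets, 5.62.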
